A study of Mus musculus with 27 samples.

Results

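The cortex of mice that received antibodies against IgLON5 was compared with the cortex of mice that received a control IgG, by bulk RNA-seq. The comparison takes the libraries whose tissue label is cortex and whose treatment label is IgLON5 (n = 4, mice 8, 9, 16 and 17) or mIgG (n = 5, mice 10, 11, 15, 37 and 75), which makes 9 of the 27 libraries of the series, and each library is 1 tissue of 1 mouse. All mice were C57Bl/6J wild-type males of 8 weeks that carried no transgene, and an osmotic pump delivered the antibody or PBS into the right lateral ventricle for 14 days at 0.25 μl/h. The α-IgLON5#1 preparation is a pool of IgLON5-specific antibodies that was affinity-purified from the plasma of a patient. The control IgG is called human monoclonal and non-reactive in the labels and purified from the serum of a healthy individual in the study's methods, so its source could not be settled here. The 5 cortices from PBS-infused mice and the hippocampi of the same animals are given beside the results only where they bear on them. The cortex was taken from the hemisphere contralateral to the pump. The labels call the cells neurons, but the tissue was not sorted.

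IgLON5 is a cell adhesion protein that is anchored to the neuronal surface, and antibodies against it mark an autoimmune disease of the brain with Tau deposits. An IgG bound to a cell surface can be read by Fcγ receptors on microglia and macrophages and by the complement cascade, which starts with C1q and proceeds through C4 and C3. Microglia that respond to such signals are known to release chemokines and cytokines, and interferons then induce antiviral proteins, guanylate-binding proteins and the machinery of antigen presentation in many brain cells.

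The α-IgLON5#1 libraries held 26827119 to 54199358 counts and the control IgG libraries 19385642 to 42698201. Markers of cortical layers summed to 813 to 1130 read counts scaled to the library size (CPM) over the 14 cortices and to 559 to 778 CPM over the 13 hippocampi of the series. They summed to 813, 864, 1050 and 888 CPM in the cortices of mice 8, 9, 16 and 17. The control cortices had 957 to 1130 CPM and the PBS cortices 904 to 1080 CPM. Markers of the hippocampus summed to 175, 259, 137 and 215 CPM in the same treated cortices. The control cortices had 104 to 148 CPM and the PBS cortices 129 to 222 CPM. The part of these differences in the results was not tested. One control library, mouse 37, stood apart: its cerebellar genes summed to 65.3 CPM against 16.4 to 20.8 CPM in the other control cortices, and a ribosomal RNA-like gene, CT010467.1, held 4.18% of its counts against 0.111 to 0.556% in the others. One α-IgLON5#1 library, mouse 9, was low in genes of the meninges, as given below. The numbers of the α-IgLON5#1 mice all lie between 8 and 17, whereas the control mice include 37 and 75. The values below are CPM scaled by the TMM factors of edgeR, and values per mouse follow the order of mice 8, 9, 16 and 17 and of mice 10, 11, 15, 37 and 75.

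Of 20271 genes tested with edgeR's quasi-likelihood test, 433 (2.14%) were up-regulated and 5 (0.0247%) down-regulated in the α-IgLON5#1 cortex where a differentially expressed gene (DEG) needed a Benjamini-Hochberg adjusted p below 0.05 together with a change of more than 2-fold. The fitted log2 fold change over all tested genes had a median of -0.01, and 48.4% of them had a positive sign. Among the up-regulated DEGs 42 were immunoglobulin (Ig) genes and 391 were not. The 4 mice did not respond alike. The non-Ig DEGs were highest in mouse 8 for 319 genes and in mouse 9 for 64, and lowest in mouse 16 for 308. All 391 were above every control cortex in mouse 8, 385 in mouse 9, 381 in mouse 17 and 303 in mouse 16. The Ig DEGs followed another order: 19 were highest in mouse 8, 16 in mouse 17 and 1 in mouse 9, and 34 were lowest in mouse 9. Without mouse 8, 218 of the 433 genes were still called, and the median of the 433 fell from 2.23 to 1.65.

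Of the 10 up-regulated DEGs with the largest fold changes and no overlap between the groups, 6 were Ig genes and the others were Marco, Clec4e, Acod1 and Saa3. Acod1, which makes itaconate, was at 36.8, 4.98, 0.190 and 1.17 CPM (log2 fold change 8.51), and Saa3, an acute-phase protein, at 51.8, 42.6, 2.62 and 2.31 CPM (8.22). Marco, a scavenger receptor, was at 21.3, 13.2, 0.167 and 0.359 CPM, with a pooled ratio of 1100 over the controls (95% interval 197 to 43600). Clec4e, a lectin receptor of myeloid cells, was at 16, 0.794, 0.0714 and 0.197 CPM with a pooled ratio of 583 (95% interval 104 to 23000), and its adjusted p was 0.27 without mouse 8. In each of these 4 genes mice 8 and 9 were above mice 16 and 17.

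**Figure D1:**
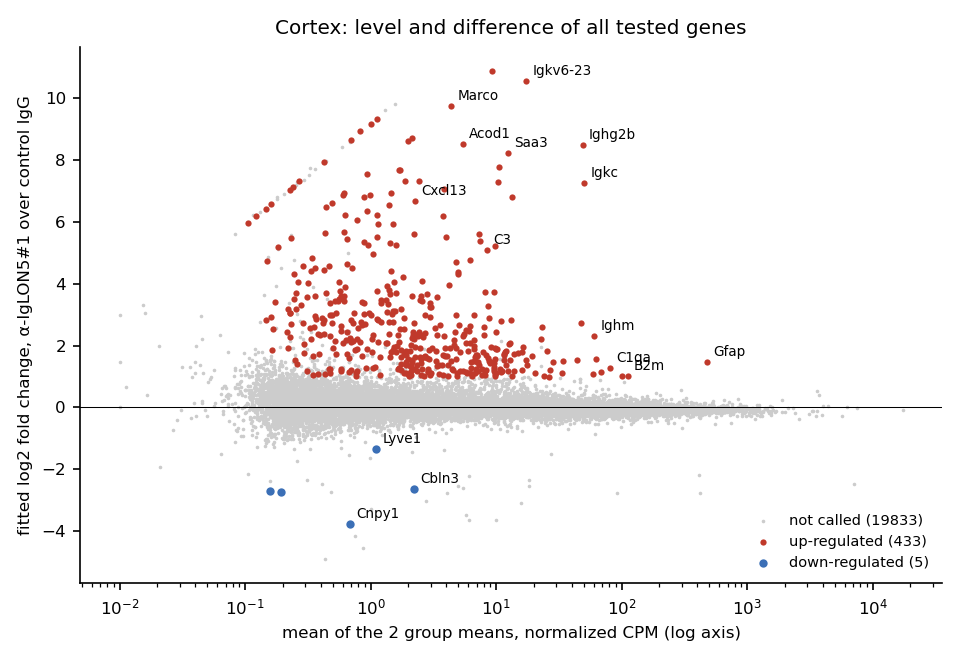
Each point is 1 of the tested genes in the cortex, with its mean level over the 2 groups on the log-scaled x axis (normalized CPM) and its fitted log2 fold change, α-IgLON5#1 over control IgG, on the y axis. The 433 up-regulated DEGs are red and reach from low levels up to Gfap, the 5 down-regulated DEGs are blue, and the other genes lie around 0.

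Genes of antibodies had the largest list medians, with log2 fold changes of 6.91 for the light and 5.5 for the heavy chain constant genes. The infused IgG is protein and adds no RNA, and the counts below are of mouse genes. Igkc, which encodes the constant part of the kappa light chain (chromosome 6, 70726435 to 70726966, GRCm38), was at 106, 31.7, 60.7 and 201 CPM in the α-IgLON5#1 cortices. In the control cortices it was at 0.375, 1.01, 1.37, 0.281 and 0.133 CPM. Each treated cortex was thus above each control, the log2 fold change was 7.25 ± 0.764 (SE) and the adjusted p was 3.64e-06. A lincRNA annotated on the same strand, Gm30211, overlaps Igkc. All 4 tested light chain constant genes and 5 of the 7 tested heavy chain constant genes were up-regulated. Jchain, which joins secreted IgM and IgA chains and is a plasma cell gene, was at 25.1, 4.94, 15.7 and 30.7 CPM against 0.282 to 0.801 CPM in the controls (log2 fold change 5.23 ± 0.608, adjusted p = 9.05e-06). All Ig genes together took 539, 125, 286 and 1050 CPM of the total counts in the treated cortices, with a 95% Wilson interval of 121 to 130 in mouse 9 and 1040 to 1060 in mouse 17, and 22.6 to 31.5 in the controls. Mouse 9 was lowest and mouse 17 highest, so the order of the mice was not that of the inflammatory genes.

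The isotypes differed between mice. Ighg2b (chromosome 12, 113302965 to 113307933), the heavy chain of IgG2b, was at 52.6, 13.8, 38.8 and 285 CPM in the treated cortices, a mean of 97.6 ± 126 (SD, n = 4). The controls had 0.344, 0.479, 0.494, 0 and 0 CPM (0.264 ± 0.248, n = 5), and the log2 fold change was 8.49 ± 1.07 (adjusted p = 1.74e-05). Ighm, the heavy chain of IgM, started from 17.4 to 23.5 CPM in the controls and was at 159, 38.5, 88.7 and 117 CPM in the treated cortices (log2 fold change 2.30 ± 0.372, adjusted p = 0.000269). Ighg3 (7.79), Igha (5.60) and Ighg1 (5.5, all log2 fold changes) also rose. Ighd, the IgD chain of naive B cells, had a log2 fold change of -0.00 (adjusted p = 0.999) and Ighg2c one of -0.25 (adjusted p = 0.72), with 2.36 to 3.21 CPM in the treated and 2 to 4.47 CPM in the control cortices, and Ighe had 0 counts. In the hippocampus of these mice the log2 fold change of Ighg2c was 2.27, the largest difference between the tissues by its p-value, but the adjusted p of the tissue-by-treatment term was 0.134. Of the counts of the 6 main heavy chain constant genes, Ighm held 60.0, 58.6, 54.0 and 24.2% in the treated cortices and 80.0 to 90.8% in the controls. Ighg2b held 19.9, 21.1, 23.6 and 59.2%, with Wilson intervals of 19.3 to 23% in mouse 9 and 58.6 to 59.7% in mouse 17, against at most 2.33% in a control. Mouse 17 thus had the highest share of Ighg2b and the lowest of Ighm. These intervals cover counting error only, since reads are not independent molecules.

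The variable genes, which encode the antigen-binding ends of the antibody and of which a B cell clone uses 1 heavy and 1 light gene, were used unequally. In mouse 17 Igkv6-23 held 41.6% of 18341 variable gene counts in the cortex (Wilson interval 40.9 to 42.3%) and Ighv1-81 21.7% (21.1 to 22.3%). In the hippocampus of that mouse they held 4.01% (3.75 to 4.29%) and 2.26% (2.07 to 2.48%). In the other 3 treated cortices Igkv6-23 held 0.629 to 1.82%. A single kappa gene and a single heavy chain gene thus made up most of the variable counts of 1 cortex. In mouse 9 Igkv5-37 held 18.5% of 588 counts (15.6 to 21.9%), in mouse 16 Ighv1-22 11.6% of 2697 (10.5 to 12.9%) and in mouse 8 Igkv14-126 7.68% of 5247 (6.99 to 8.43%), so the leading gene was a different one in each mouse. Of these leading genes, Ighv1-22 was also the first variable gene in the hippocampus of its mouse, at 8.71% (8.00 to 9.48%). These genes other than Igkv6-23 were chosen after their values were seen. Variable genes are near-identical copies, so reads may have been split or lost between them. In the controls the variable genes had 14 to 64 counts per cortex.

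**Figure D2:**
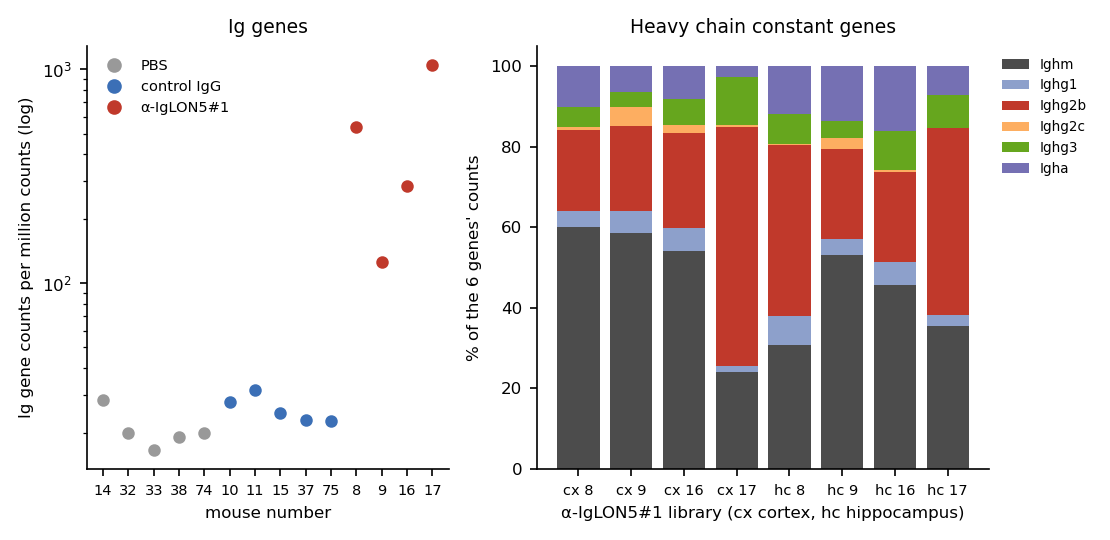
Left, CPM of all Ig genes in each cortex on a log axis, by mouse number, with PBS in grey, control IgG in blue and α-IgLON5#1 in red; the 4 red points, 125 to 1050, lie above all others. Right, the share of 6 heavy chain constant genes in their summed counts in the cortex (cx) and hippocampus (hc) of each α-IgLON5#1 mouse, with Ighg2b at 59.2% in the cortex of mouse 17.

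Markers of B cells were low and partly below detection. Of 12 tested B cell markers 5 were up-regulated, and the summed level of the list was 7.33 to 18.7 CPM in the treated and 4.43 to 5.27 CPM in the control cortices. Pou2af1, a coactivator needed for antibody responses, was at 4.05, 0.217, 0.905 and 1.76 CPM against 0 to 0.125 CPM (log2 fold change 5.36, adjusted p = 0.000421). Cd79b, part of the B cell receptor, had a log2 fold change of 2.15 (adjusted p = 0.00197). Ms4a1, which encodes CD20, was at 1.6, 0, 0.143 and 0.466 CPM, with 3 counts over the 5 controls and a pooled ratio of 28.4 (95% interval 9.40 to 140). Its call was lost without mouse 8 (adjusted p = 0.274) or without any of 4 control mice. Mouse 9, which had no Ms4a1 count, was also the lowest in Ig genes. Of 9 tested plasma cell markers Jchain alone was up-regulated, and Xbp1, which is expressed in many cell types, was level (log2 fold change -0.07).

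Few T cell genes passed the test. Of 12 tested T cell markers 2 were up-regulated, 11 were higher and 4 had no overlap, at a median log2 fold change of 0.94, and Cd3d, Cd3e, Cd8a, Cd8b1, Cd2 and Trbc1 were too low to be tested. Cd3g, a chain of the T cell receptor complex, was at 0.516, 0.325, 0.286 and 0.161 CPM against 0 to 0.0626 CPM in the controls (log2 fold change 3.41, adjusted p = 0.00683), and Icos, a costimulatory receptor, had a log2 fold change of 2.04 (adjusted p = 0.0101). These are levels of a few CPM at most. In bulk tissue, more cells of a type and more RNA per cell cannot be told apart, here or below.

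The receptors that bind IgG rose together with their signalling partners. Of the 10 tested genes of the Fcγ receptor list 7 were up-regulated, 8 passed the adjusted p alone (3.01% of all tested genes were higher by that rule) and 8 had all treated above all control cortices (3.68% of all tested genes). The median log2 fold change of the list was 1.19, and 0.93 with 4 up-regulated without mouse 8. Fcgr4, an activating receptor for mouse IgG (chromosome 1, 171018920 to 171029761), was at 4.81, 6.89, 0.643 and 1.40 CPM, against 0.219, 0.0532, 0.377, 0.105 and 0.0333 CPM in the controls (log2 fold change 4.22 ± 0.681, adjusted p = 0.000268). The inhibitory receptor Fcgr2b was at 30.2, 16.4, 11.0 and 11.2 CPM against 5.25 to 7.13 CPM (log2 fold change 1.52, adjusted p = 0.000628). Activating and inhibitory receptors thus both rose, with the lowest values in mice 16 and 17. Fcer1g, the shared signalling chain of activating Fc receptors, had a log2 fold change of 1.73, and the kinases Syk (1.21) and Lyn (1.17) rose as well. Fcgr3 had a smaller difference (log2 fold change 0.63, adjusted p = 0.00804). Fcgrt, the receptor that recycles IgG in vessel walls, had one of -0.23 (adjusted p = 0.584).

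Complement genes were up-regulated at the start and the middle of the cascade. Of 19 tested complement genes 8 were up-regulated, the median log2 fold change was 0.90, and without mouse 8 there were 7 and the median was 0.70. C1qa, which encodes a chain of the recognition protein C1q, was at 106, 132, 113 and 107 CPM, against 47.9, 47.5, 58.1, 39.0 and 42.9 CPM in the controls. Its groups were far apart and the 4 treated cortices lay close together (log2 fold change 1.28 ± 0.142, adjusted p = 4.95e-06). C4b, the next component, was at 139, 89.8, 59.3 and 89.7 CPM against 19.6 to 43.1 CPM (log2 fold change 1.58, adjusted p = 0.000235). C3, the central component (chromosome 17, 57203970 to 57228136), was at 33.0, 16.6, 7.19 and 8.84 CPM against 0.156, 0.319, 1.06, 0.316 and 0.333 CPM (log2 fold change 5.10 ± 0.563, adjusted p = 4.95e-06). C3ar1 (2.45) and C5ar1 (2.02), receptors for the fragments C3a and C5a, also rose. Hc, which encodes C5, did not pass in the cortex (log2 fold change 1.38, adjusted p = 0.154) and had a log2 fold change of -2.51 in the hippocampus (adjusted p of the tissue-by-treatment term 0.178). C3 remained below the adjusted p of 0.05 even when the comparison was restricted to the animals 8 to 17 (adjusted p = 0.0492).

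The phagocyte NADPH oxidase, which makes superoxide, was among the most complete groups. Of its 6 genes 5 were up-regulated, all 6 passed the adjusted p, and all 6 had no overlap between the groups. Cybb, the catalytic subunit, was at 45.3, 15.7, 3.40 and 7.82 CPM against 1.19, 0.586, 2.05, 0.948 and 1.73 CPM (log2 fold change 3.74 ± 0.533, adjusted p = 7e-05). Ncf4 and the GTPase Rac2 each had a log2 fold change of 2.35, Ncf1 of 1.39 and Cyba of 1.17. Without mouse 8 the median fell from 1.87 to 1.58, and 4 of the genes were up-regulated.

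Genes shared by microglia, macrophages and monocytes rose, while the 10 listed genes of resting, or homeostatic, microglia did not pass the test. Slc2a5 and Crybb1, outside that list, were lower, as given below. Of 12 pan-myeloid genes 7 were up-regulated and 11 passed the adjusted p. Adgre1, which encodes F4/80, was at 44.2, 62.8, 17.3 and 25.7 CPM against 6.88 to 8.61 CPM (log2 fold change 2.23 ± 0.264, adjusted p = 1.06e-05). Ptprc, the leukocyte antigen CD45, was at 36.5, 20.5, 10.8 and 13.7 CPM against 4.42 to 5.35 CPM (2.05 ± 0.229, adjusted p = 5.52e-06). Lyz2 (2.73) and Aif1 (1.57), which encodes Iba1, followed, and Csf1r, the receptor that keeps microglia alive, had a log2 fold change of 0.24 (adjusted p = 0.241). Of 10 homeostatic microglia genes 0 were called at any fold, and the median was 0.09. P2ry12, a purinergic receptor of resting microglia, was at 21.3, 22.6, 41.1 and 34.3 CPM against 35.7 to 43.4 CPM, so mice 8, 9 and 17 lay below all controls and mouse 16 did not (log2 fold change -0.43, adjusted p = 0.213). Cx3cr1 was at 89.8, 95.2, 69.9 and 71.0 CPM against 55.6 to 67.1 CPM, all above the controls, with a log2 fold change of 0.44 (adjusted p = 0.058).

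Of 16 genes of disease-associated microglia, a state described around plaques and damage, 4 were up-regulated and the median was 0.45, and without mouse 8 there were 3 at a median of 0.26. Those 4 were Clec7a (3.46), a receptor for glucans, Itgax (3.10), the integrin CD11c, Cst7 (3.04), a protease inhibitor, and Lgals3 (2.90), a galectin. Itgax was at 3.45, 2.85, 1.38 and 2.01 CPM against 0.105 to 0.400 CPM, and it was called also among the animals 8 to 17. Trem2, the lipid receptor that drives this state, had a log2 fold change of 0.19 (adjusted p = 0.507) and Apoe one of -0.02 (adjusted p = 0.951). Thus some members rose by more than 2 units of log2 while the most abundant one was level. Of 15 lysosome genes 3 were up-regulated and 8 passed the adjusted p, with Ctss, a protease of antigen processing, at 124 to 149 CPM against 53.5 to 80.7 CPM (log2 fold change 1.02) and Ctsb (-0.03) and Lamp1 (0.00) level.

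Markers of blood monocytes were high in mouse 8. Their summed level was 43.7 CPM in mouse 8 and 2.90 CPM in the lowest treated cortex, against 1.19 to 2.47 CPM in the controls. Ccr2, the receptor that draws monocytes to CCL2, was at 14.1, 3.36, 1.93 and 3.07 CPM against 0.407 to 1.74 CPM (log2 fold change 2.56, adjusted p = 0.00872), and without mouse 8 its adjusted p was 0.189. F10, a coagulation factor made by monocytes, had 0 counts in every control, was at 6.44, 0.938, 0.0476 and 0.0897 CPM in the treated cortices and was below the count filter. Of 6 tested markers 5 were up-regulated with all libraries, with a median of 3.29, and 1 without mouse 8, with a median of 1.6, and that one was Ly6c2 (adjusted p = 0.00291). The monocyte markers moved with the groups described above and below, most of all in mouse 8, and their part in those results was not tested. Csf3r, a receptor of granulocytes and myeloid cells, was the 1 of 7 tested neutrophil markers that was up-regulated (log2 fold change 1.18), and Ly6g was too low to be tested.

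Most tested chemokine ligands, which draw leukocytes, were raised. Of 20 tested ligands 15 were up-regulated, and the list median was a log2 fold change of 3.70, and without mouse 8 there were 11 with a median of 2.24. Ccl11, Ccl19, Ccl24 and Cxcl2 were not tested. Several tested ligands were near 0 in the controls and met the count filter through treated libraries, so the count and the median are partly fixed by that filter. Ccl3, which attracts monocytes and T cells, was at 68.1, 9.74, 0.476 and 3.42 CPM against 0.0626, 0.213, 0.0706, 0.0702 and 0.266 CPM (log2 fold change 7.29 ± 1.17, adjusted p = 0.000254). Ccl2, the main monocyte attractant, was at 23.9, 4.55, 0.143 and 1.49 CPM against 0.0313 to 0.160 CPM, so mouse 16 lay within the controls (6.19 ± 1.14, adjusted p = 0.00112). Ccl5, a T cell attractant, was at 10.7, 5.27, 0.619 and 0.879 CPM against 0.0333 to 0.160 CPM (5.60 ± 0.81, adjusted p = 8.18e-05). All 3 were highest in mouse 8 and lowest in mouse 16. Cxcl10, an interferon-induced ligand, was at 88.1, 10.6, 0.405 and 7.76 CPM against 0.0939 to 0.499 CPM (6.80 ± 1.33, adjusted p = 0.00214), again with mouse 16 inside the control range. Cxcl13, the B cell attractant, was at 5.49, 9.67, 1.19 and 1.65 CPM against 0 to 0.0702 CPM (6.68 ± 0.835, adjusted p = 1.62e-05), with mouse 9 highest. Mouse 9, highest in the B cell attractant, had the fewest Ig counts. The 2 ligands with the highest levels in the cortex were not higher: Cx3cl1, made by neurons, had a log2 fold change of -0.28 (adjusted p = 0.0921) and Cxcl14 one of -0.23 (adjusted p = 0.119). Of 9 tested chemokine receptors 3 were up-regulated, Ccr2, Cxcr6 (2.27) and Cxcr4 (1.12), and without mouse 8 there was 1, while the list median went from 1.26 to 0.71.

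Among the cytokines Tnf, Il1b, Il1a and Il1rn were up-regulated. Tnf was at 12, 2.20, 0.119 and 0.753 CPM, with 3 counts over the 5 controls, and the pooled ratio was 171 (95% interval 58.1 to 831). Il1b was at 42.0, 3.18, 0.976 and 2.03 CPM against 0.200 to 0.639 CPM (log2 fold change 4.76, adjusted p = 0.00186), and its adjusted p was 0.129 without mouse 8. Il1rn, the natural antagonist of interleukin 1, was at 17.9, 1.12, 0.119 and 0.233 CPM against 0 to 0.106 CPM and was likewise lost without mouse 8 (adjusted p = 0.216). Il1a stayed called without mouse 8, with a log2 fold change of 2.34 that became 1.6 (adjusted p = 0.00483). Il6 was below the count filter, at 2.07 CPM in mouse 8 and 0.0897 to 0.144 CPM in the other treated cortices. Of 14 tested cytokines 4 were up-regulated, and Il6, Il10, Il12b, Ifng, Csf2 and Csf3 were too low to be tested, which leaves the interferon gamma transcript itself without a value. Of 9 inflammasome genes 3 were up-regulated, Il1b, Casp4 (2.76) and the sensor Nlrp3 (2.44), while Il18 was level (-0.04). Of 13 genes of Toll-like receptor signalling 5 were up-regulated with and without mouse 8. They were led by Tlr2, the receptor for bacterial lipoproteins, at 34.5, 15.9, 3.07 and 6.92 CPM against 0.732 to 1.39 CPM (3.75 ± 0.502, adjusted p = 3.23e-05).

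**Figure D3:**
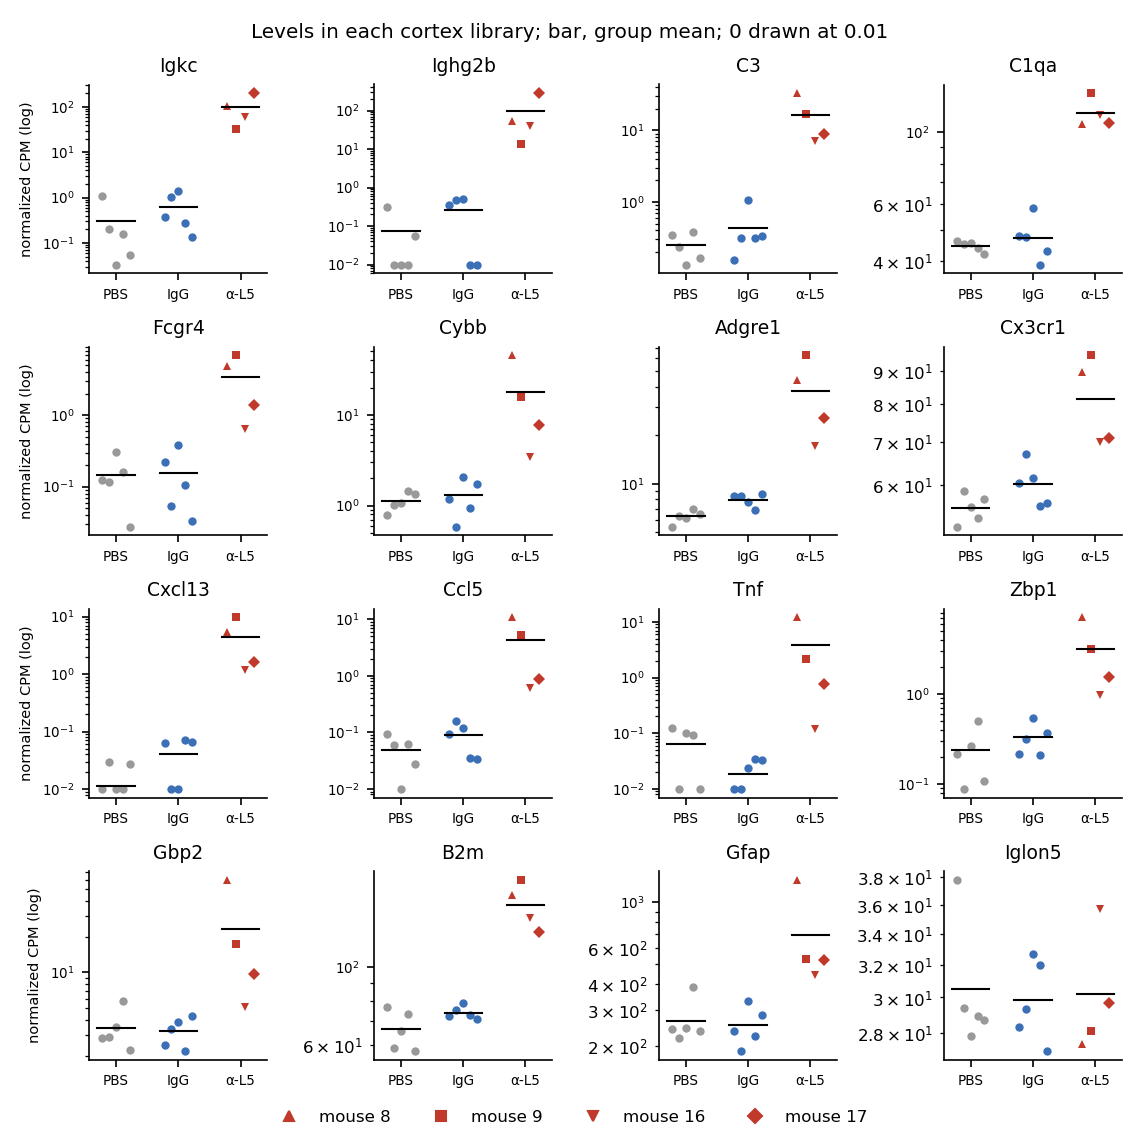
Normalized CPM on log axes of 16 genes in each cortex, with PBS in grey, control IgG (IgG) in blue and α-IgLON5#1 (α-L5) in red, where the shape of a red point gives the mouse, a bar is the group mean and values of 0 are drawn at 0.01. C1qa and B2m show 4 treated cortices close together, whereas Ccl5, Tnf and Gbp2 fall from mouse 8 to mouse 16, and Iglon5 overlaps in all groups.

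Interferon-induced genes were higher in 3 of the 4 treated mice. Of 18 genes of the type I interferon response 12 were up-regulated, and the list median was a log2 fold change of 1.96. Taken as the median difference of its genes from the control mean, the list stood 3, 2.34, 0.04 and 1.46 log2 units above the controls in mice 8, 9, 16 and 17. The list median of mouse 16 was therefore at the control level, although 3 of the 18 genes had every treated cortex above every control. Zbp1, a sensor of nucleic acids, was at 7.09, 3.14, 0.976 and 1.56 CPM against 0.211 to 0.542 CPM (3.20 ± 0.568, adjusted p = 0.000788). Irf7, the transcription factor that amplifies the response, was at 19.5, 12.6, 1.64 and 5.25 CPM against 1.49 to 1.86 CPM (2.51, adjusted p = 0.00188). Isg15, a ubiquitin-like modifier, was at 16.9, 8.12, 1.79 and 3.26 CPM against 1.16 to 2.23 CPM (2.17, adjusted p = 0.0124). In Irf7 and Isg15 mouse 16 lay inside the control range. Mx1 (3.67), Rsad2 (2.99) and Oas1a (2.77), antiviral effectors, rose too. The most abundant genes of the list, Cmpk2 (0.32, adjusted p = 0.292) and Ifit2 (0.44, adjusted p = 0.188), did not pass. Without mouse 8 the list had 4 up-regulated genes and a median of 1.46, and in the hippocampus its median was 0.98.

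The calls among the GTPases that interferon gamma induces depended on mouse 8. Scored as the type I list was, their list stood 2.52, 1.37, 0.20 and 1.03 log2 units above the controls in mice 8, 9, 16 and 17. The single controls stood at -0.23 to 0.27. Of 14 genes of their list, which also holds the transcription factors Irf1 and Irf8, 9 were up-regulated, all of them GTPases, with a median of 1.43, and without mouse 8 there were 0 at a median of 0.87. Gbp2, a guanylate-binding protein that attacks intracellular pathogens, was at 60.3, 17.3, 5.10 and 9.68 CPM against 2.47, 3.35, 3.81, 2.18 and 4.29 CPM. Each treated cortex was above each control (log2 fold change 2.83 ± 0.584, adjusted p = 0.00364), and without mouse 8 the log2 fold change was 1.71 (adjusted p = 0.108). Gbp3 (1.97), Irgm2 (1.38) and Irgm1 (1.20) followed. Irf8, a factor of myeloid cells, passed below the fold threshold (0.92, adjusted p = 0.000175).

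Windows around RefSeq transcription starts (250 bases before to 50 after, GRCm38.p6) were available for 301 of the 433 up-regulated DEGs and searched on both strands. The core of the interferon-stimulated response element, GAAANNGAA, the site of factors that interferon activates, was present in 24.1% of 353 windows of the up-regulated DEGs and in 7.39% of 17033 windows of all tested genes. Among called members of the lists it was present in 6 of 8 windows of the type I interferon response, in 7 of 8 of the interferon gamma GTPases, in 2 of 3 of the NADPH oxidase, in 3 of 9 of the chemokine ligands, in 1 of 10 of the class I genes and in 0 of 9 of the reactive astrocyte list. The kappa B motif was present in 13% against 5.28%, TGANTCA (AP-1) in 15.0% against 5.48%, GAGGAAG (PU.1) in 22.7% against 13.6%, TTCNNNGAA (gamma-activated site) in 10.5% against 6.95% and TGACGTCA (CRE) in 0.85% against 2.65%. The motifs were counted independently and may overlap. Irf7, described above, had no match in its window. As examples, 4 genes with a match are shown by the 200 bases before the start, with the core, on either strand, in capitals. They lie at chr3:142620463-142620662 (+) for Gbp2, chr3:142559844-142560043 (+) for Gbp3, chr11:48871421-48871620 (-) for Irgm1 and chr8:71537473-71537672 (-) for Bst2.
Gbp2: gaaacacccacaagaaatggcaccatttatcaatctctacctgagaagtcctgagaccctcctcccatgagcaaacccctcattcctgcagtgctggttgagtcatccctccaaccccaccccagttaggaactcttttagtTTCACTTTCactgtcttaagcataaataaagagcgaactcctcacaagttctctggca
Gbp3: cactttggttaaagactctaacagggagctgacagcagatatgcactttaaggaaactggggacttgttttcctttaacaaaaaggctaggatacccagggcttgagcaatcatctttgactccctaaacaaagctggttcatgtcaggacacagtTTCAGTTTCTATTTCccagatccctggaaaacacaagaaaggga
Irgm1: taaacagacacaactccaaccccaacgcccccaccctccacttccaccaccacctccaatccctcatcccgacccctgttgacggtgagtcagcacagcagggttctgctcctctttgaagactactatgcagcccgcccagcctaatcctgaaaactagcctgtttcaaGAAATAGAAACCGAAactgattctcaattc
Bst2: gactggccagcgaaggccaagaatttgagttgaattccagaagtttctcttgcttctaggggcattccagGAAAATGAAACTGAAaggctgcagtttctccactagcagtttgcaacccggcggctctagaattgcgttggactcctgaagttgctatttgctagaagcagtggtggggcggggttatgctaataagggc
The core ends 50 bases before the start in Gbp2, 30 in Gbp3, 16 in Irgm1 and 116 in Bst2. A match describes the letters of the window and not a bound site. Bst2, tetherin, which holds virus at the cell surface, was at 14.3, 16.1, 4.05 and 7.6 CPM against 2.53 to 3.37 CPM (1.89 ± 0.34, adjusted p = 0.00088). Its 4 treated cortices were above all controls.

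Genes of class I antigen presentation were raised in all 4 treated mice. Of 15 genes 10 were up-regulated, 12 passed the adjusted p and the median log2 fold change was 1.44, and without mouse 8 there were 8 with a median of 1.27. B2m, the invariant chain of class I molecules (chromosome 2, 122147686 to 122153083), was at 160, 177, 138 and 126 CPM against 72.5, 75.2, 79.0, 72.9 and 70.8 CPM. The spread within each group was small beside the difference (log2 fold change 1.02 ± 0.109, adjusted p = 3.64e-06), and B2m was called also among the animals 8 to 17 (adjusted p = 0.0492). H2-K1, a classical class I heavy chain, was at 95.3, 68.5, 41.8 and 56.8 CPM against 17.5 to 28 CPM (1.53, adjusted p = 1.1e-05). H2-D1, the other classical chain, was at 103, 85.5, 59.7 and 71.6 CPM against 32.6 to 43.1 CPM (1.09, adjusted p = 1.1e-05). Nlrc5, the transactivator of class I genes, had a log2 fold change of 2.67, the peptide transporter Tap1 of 1.99 and the immunoproteasome subunit Psmb8 of 1.84. Class I heavy chain genes are close copies of each other, so reads may be split between them. The kappa B motif was present in 7 of 10 windows of the called class I members, in those of B2m, H2-K1, H2-D1, H2-Q4, H2-Q6 and H2-Q7. It is shown in capitals in the 200 bases before the start of 3 of them, at chr2:122147487-122147686 (+) for B2m, chr17:34000348-34000547 (-) for H2-K1 and chr17:35262894-35263093 (+) for H2-D1, because H2-K1 and H2-D1 share the element and its surroundings.
B2m: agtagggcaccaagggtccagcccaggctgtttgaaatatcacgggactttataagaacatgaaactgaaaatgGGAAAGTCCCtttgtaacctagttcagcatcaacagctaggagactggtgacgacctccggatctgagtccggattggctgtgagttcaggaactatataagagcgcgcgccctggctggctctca
H2-K1: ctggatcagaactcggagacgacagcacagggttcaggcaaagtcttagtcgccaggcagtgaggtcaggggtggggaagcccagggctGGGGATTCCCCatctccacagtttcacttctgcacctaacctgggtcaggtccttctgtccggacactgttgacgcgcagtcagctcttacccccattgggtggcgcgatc
H2-D1: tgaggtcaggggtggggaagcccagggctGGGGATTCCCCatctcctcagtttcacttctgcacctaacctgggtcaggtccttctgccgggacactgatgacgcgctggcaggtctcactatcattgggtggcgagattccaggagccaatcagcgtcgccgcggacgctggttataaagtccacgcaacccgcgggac

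Class II genes, which present antigen to CD4 T cells, were higher but more variable in the controls. Of 10 genes 3 were up-regulated, 7 had all treated above all control cortices and the median was 1.07, and without mouse 8 there were 0 up-regulated at a median of 1.02. H2-Aa was at 34.6, 14.9, 13.5 and 20.5 CPM against 2.66, 3.94, 9.96, 3.76 and 3.82 CPM, with control mouse 15 the highest control (2.09, adjusted p = 0.0373). Its call was lost when any of 6 libraries was left out. Cd74, the invariant chain, was at 65.1, 21.5, 24.1 and 35.2 CPM against 5.91 to 18.7 CPM without overlap, and its adjusted p was 0.0545.

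**Figure D4:**
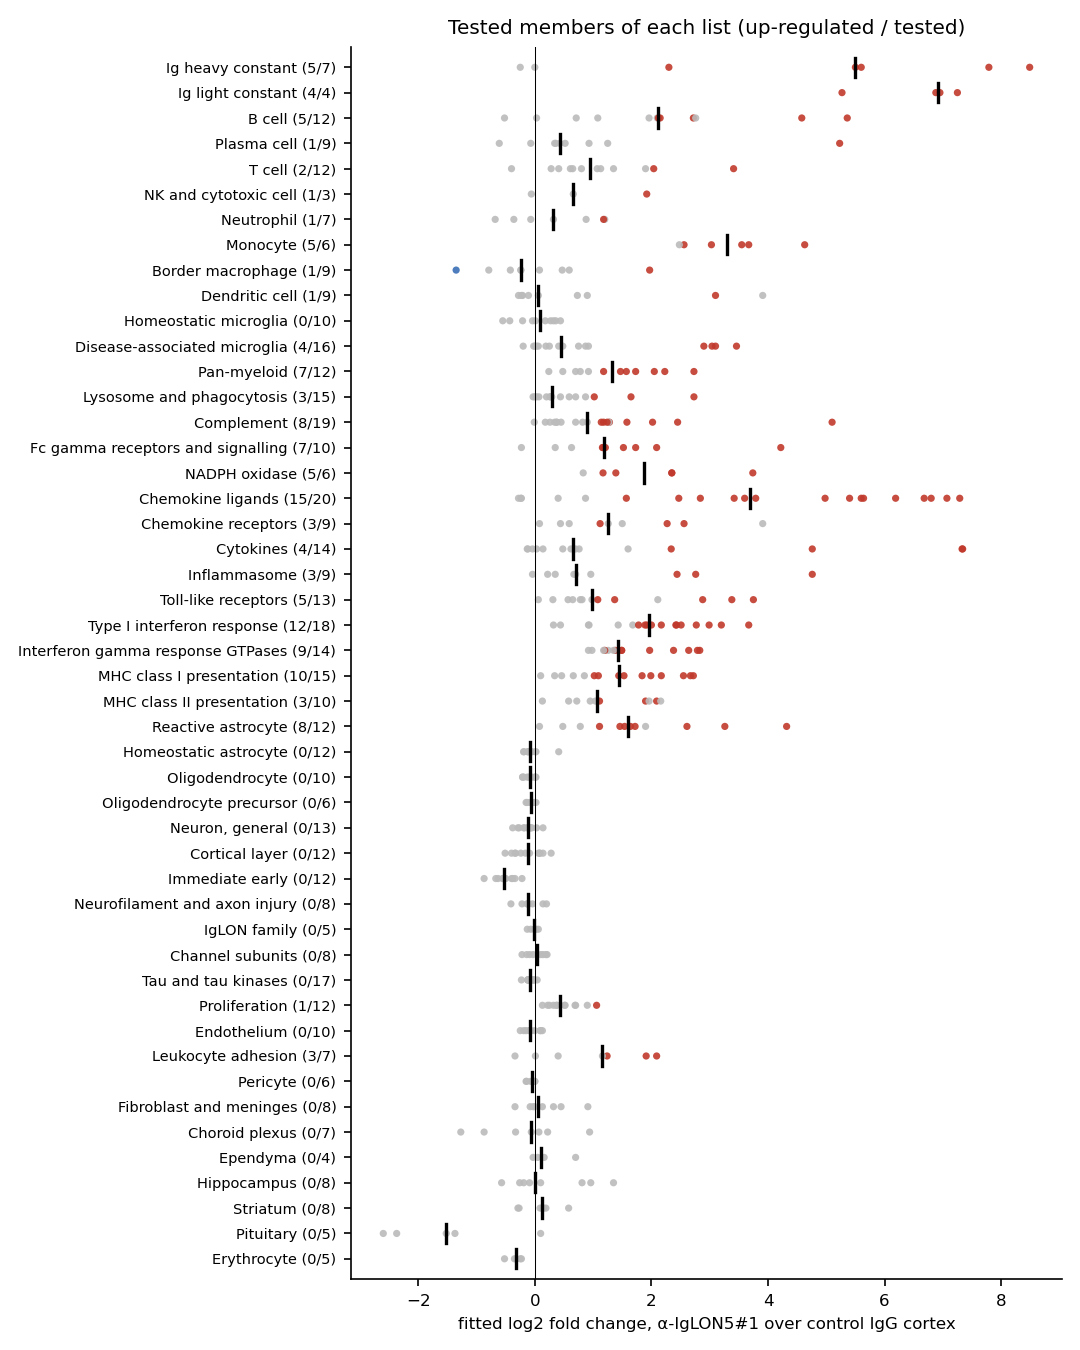
Each row is a gene list, each point the fitted log2 fold change of 1 tested member (red up-regulated, blue down-regulated, grey not called) and each bar the median, with the number up-regulated of the number tested beside the name. Medians reach 6.91 in the light chain list, are near 0 for dendritic cells (0.06), homeostatic microglia (0.09), oligodendrocytes, endothelium and channels, and are -0.24 for border macrophages and -0.53 for immediate early genes.

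Reactive astrocyte genes rose, mostly in mouse 8. Gfap, the intermediate filament of astrocytes, was at 1290, 532, 441 and 524 CPM against 237, 189, 333, 223 and 284 CPM. All treated cortices were above all controls (log2 fold change 1.46 ± 0.248, adjusted p = 0.000477). Serpina3n, a secreted protease inhibitor, was at 104, 29.8, 11.7 and 13.8 CPM against 5.41 to 7.11 CPM (2.61 ± 0.468, adjusted p = 0.000877). Lcn2, a secreted iron-binding protein, was at 27.3, 8.59, 0.500 and 1.26 CPM against 0.266 to 0.589 CPM (4.32, adjusted p = 0.00325), with mouse 16 among the controls. Of 12 genes 8 were up-regulated at a median of 1.59, and without mouse 8 there was 1, Serpina3n (log2 fold change 1.48, adjusted p = 0.0193), at a median of 0.77. Gfap still passed without mouse 8, at a log2 fold change of 0.98 that is just under the fold threshold (adjusted p = 0.00535). Of 12 homeostatic astrocyte genes 0 passed, among them the glutamate transporter Slc1a2 (-0.12) and glutamine synthetase Glul (-0.19).

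Vessel genes were level while some leukocyte adhesion genes were raised. Of 10 endothelial and 6 pericyte markers 0 were called, with medians of -0.08 and -0.05. Of 7 tested adhesion genes 3 were up-regulated. Icam1, the ligand of leukocyte integrins, was at 22.3, 7.47, 3.69 and 6.81 CPM against 2 to 2.66 CPM (2.09, adjusted p = 0.000863). The other 2, Itgal (1.91) and Itgb2 (1.24), are leukocyte integrin chains and not vessel genes, and Itgb2 is also in the complement list. Vcam1 did not pass (0.40, adjusted p = 0.093), and Sele, Selp and Madcam1 were too low to be tested.

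The transcripts of the antibody's target and of its family did not pass the test. Iglon5 (chromosome 7, 43472904 to 43490075) was at 27.4, 28.1, 35.7 and 29.7 CPM against 28.3, 29.3, 32.7, 32.0 and 27 CPM, with means of 30.2 ± 3.79 (SD, n = 4) and 29.8 ± 2.42 (n = 5). The groups overlapped, with mouse 16 above all controls (log2 fold change 0.02 ± 0.0906, adjusted p = 0.951). Lsamp (0.06), Opcml (-0.01), Negr1 (-0.07) and Ntm (-0.13), the other members of this family of adhesion molecules, had 0 calls. Of 17 genes for Tau and its kinases 0 were DEGs, with a median of -0.08. Mapt, which encodes Tau, was at 550, 565, 607 and 544 CPM against 572 to 603 CPM (log2 fold change -0.07 ± 0.0542, adjusted p = 0.573). One member was lower at the adjusted p alone, a rule met in that direction by 0.449% of all tested genes: Cdk5r1, the activator p35 of the Tau kinase Cdk5, at 290, 316, 332 and 303 CPM against 334 to 398 CPM (-0.23 ± 0.0616, adjusted p = 0.0348). Its groups did not overlap, but it no longer passed the adjusted p when any of 6 libraries was left out. Of 8 channel subunit and receptor genes that the study names for surface clusters with IgLON5 0 were called (median 0.03).

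Neuronal lists were level apart from small decreases. Of 13 general neuron markers 0 passed, with a median of -0.11, and of 12 markers of cortical layers 1 was lower, Rorb, a factor of layer 4 neurons, at 30.5, 33.6, 36.7 and 37.3 CPM against 36.9 to 67.8 CPM (-0.51 ± 0.129, adjusted p = 0.0229). Rorb no longer passed the adjusted p without either of mice 8 and 9 or either of control mice 10 and 11. Of 12 immediate early genes, which neurons induce when they fire, 0 passed and all 12 were lower, with a median of -0.53. The PBS cortices lay below the control IgG cortices for this list, with a median of 0.71 for control IgG over PBS and of 0.21 for α-IgLON5#1 over PBS, so the direction depends on which control is taken. Egr1 was at 393, 556, 850 and 671 CPM, against 620 to 993 CPM in control IgG and 221 to 1060 CPM in PBS cortices (-0.50, adjusted p = 0.448). Of 10 oligodendrocyte and 6 precursor genes 0 passed, with Mbp at 0.01, and of 8 tested neurofilament and axon injury genes 0 passed, with Nefl at -0.22 (adjusted p = 0.28).

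Altogether 91 genes were lower at the adjusted p, of which 86 changed by less than 2-fold, and their median log2 fold change was -0.26. Against PBS 89 of them were lower too, but 7 passed the adjusted p there. Of these, 79 had more than 10 CPM in the controls and 65 had no overlap (2.67% of all tested genes lay below the controls without overlap). Gabrd, the delta subunit of extrasynaptic GABA receptors, was at 32.7, 41.6, 46.4 and 39.6 CPM against 43.6 to 65.9 CPM (-0.48, adjusted p = 0.0245). Syndig1, a synaptic protein, was at 17.1, 22, 21.4 and 21.3 CPM against 23.3 to 37.4 CPM (-0.58, adjusted p = 0.0253). Both were lower in mouse 8 than in any other library of the comparison, the groups of Gabrd overlapped, and without mouse 8 the adjusted p-values were 0.163 and 0.152. Slc2a5, a hexose transporter found in microglia, was at 2.58, 1.52, 3.93 and 3.25 CPM against 4.25 to 6.44 CPM (-0.84 ± 0.165, adjusted p = 0.00219), and Crybb1, a gene of young and resting microglia, at 1.98, 2.24, 2.45 and 2.87 CPM against 3.55 to 5.22 CPM (-0.80 ± 0.182, adjusted p = 0.00905). Slc2a5 kept an adjusted p below 0.05 when any 1 library was left out, and Crybb1 did not without mouse 8 (adjusted p = 0.0653). Without mouse 8, 9 of the 91 genes passed, and without control mouse 37, 32 did. These 4 genes were chosen after their values were seen.

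The 5 down-regulated DEGs fall into 2 kinds. Lyve1, a hyaluronan receptor of border macrophages and lymphatic vessels (chromosome 7, 110850607 to 110863239), was at 0.516, 0.361, 0.976 and 0.628 CPM against 1.66, 0.905, 2.17, 1.51 and 1.73 CPM. Mouse 16 overlapped with control mouse 11, the level was lower by a log2 fold change of -1.35 ± 0.283 (adjusted p = 0.00425), and Lyve1 stayed called when any 1 library was left out (highest adjusted p 0.0296). Cd209b, a lectin, was at 0.0179 to 0.0722 CPM against 0.0706 to 0.407 CPM (-2.71, adjusted p = 0.0311) and was lost when any of 6 libraries was left out. Of the other 8 tested border macrophage markers 4 were lower, none of them past the test, and 4 higher, and the median of the whole list was -0.24. Mrc1 had a log2 fold change of 0.59 (adjusted p = 0.61), and Ms4a7, also a gene of activated microglia, was at 2.26 to 4.67 CPM against 0.702 to 1.20 CPM (1.97, adjusted p = 0.00082). Mouse 9 was low in this list as in the meningeal one. Its Col1a1 was 2.27 CPM against 24.2 to 41.3 CPM in the other treated cortices, and its Mrc1 1.66 CPM against 15.4 to 25 CPM. Over the 8 meningeal genes its median lay 3.17 log2 units below the controls, with a summed level of 81.8 CPM against 130 to 224 CPM in the controls, and in its hippocampus 2.24 below. The part of this in the results was not tested. The remaining down-regulated DEGs, Cbln3, Cnpy1 and Lhx1, are expressed in the cerebellum. They were high in control mouse 37: Cbln3 was at 14.8 CPM there, at 0.469 to 1.5 CPM in the other controls and at 0.408 to 0.807 CPM in the treated cortices. Without mouse 37 their adjusted p-values were 0.347, 0.419 and 0.143. Of 8 hippocampal markers 1 was higher at the adjusted p, Cpne7, at 119, 170, 93.1 and 147 CPM against 58.8 to 96.6 CPM (0.81, adjusted p = 0.0229), and Fibcd1 was at 22.1, 57.7, 12.5 and 38.0 CPM against 7.2 to 20.5 CPM (1.35, adjusted p = 0.0666). The list's median was 0.00, and its summed levels are given above. The 5 pituitary hormone genes, whose levels ranged from 5.25 to 93.4 CPM in sum over the controls and from 2.38 to 45.5 CPM over the treated cortices, were not called.

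**Figure D5:**
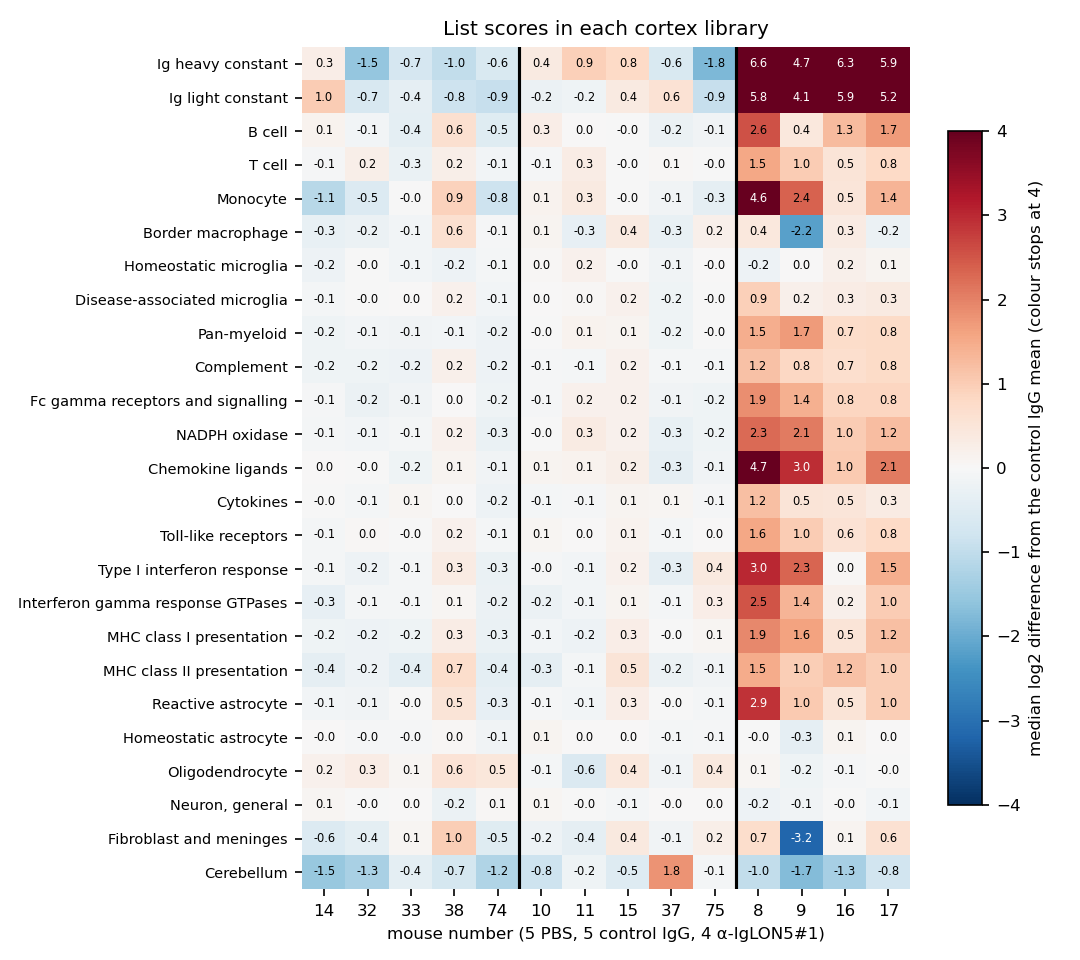
Each cell is the median over the tested genes of a list of the log2 difference between a cortex library and the control IgG mean, for 5 PBS, 5 control IgG and 4 α-IgLON5#1 mice, and the colour scale stops at 4. Mouse 8 has the highest values in most immune lists, mouse 16 has 0.04 for the type I interferon response, mouse 9 has -3.17 for fibroblasts and meninges, and control mouse 37 has 1.80 for the cerebellum.

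The PBS cortices served as a second background. The comparison with PBS shares the treated libraries with the comparison above and is given beside it only. Of the 433 up-regulated DEGs, 407 had a log2 fold change above 1 over PBS and 391 were DEGs there too, and between control IgG and PBS 0 genes passed an adjusted p of 0.05 in edgeR (1650 had an unadjusted p under 0.05). C3 had a log2 fold change of 6.01 over PBS and 5.10 over control IgG, Gfap 1.39 and 1.46, Cxcl13 8.14 and 6.68, and B2m 1.18 and 1.02.

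The hippocampus of the same treated mice was measured with its own controls, which were 4 libraries because control mouse 11 has no hippocampus library. In the hippocampus of mouse 9 the ribosomal RNA-like gene CT010467.1 held 11.6% of the counts. It held 0.074 to 0.852% in the other treated and control hippocampi, and its part in the values below was not tested. The log2 fold changes in the cortex and the hippocampus were 5.10 and 5.56 for C3, 1.28 and 1.61 for C1qa, 5.23 and 6.44 for Jchain, 3.20 and 1.89 for Zbp1, 6.80 and 4.91 for Cxcl10, and 2.30 and 4.24 for Ighm. The tissue-by-treatment term passed the adjusted p of 0.05 for 0 genes in edgeR (0.0% of 20271; 2158 at an unadjusted p under 0.05, 36 at the adjusted p with DESeq2 and 2 with the animal as a block), and its adjusted p was at least 0.134. The median of the type I interferon list was 1.96 in the cortex and 0.98 in the hippocampus, with 12 and 4 up-regulated DEGs, and that of the class II list 1.07 and 1.53. The difference of the tissues was not tested for these lists as such.

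When the comparison was restricted to the animals numbered 8 to 17 (4 treated and 3 control cortices), 9 of the 433 genes were called. All 433 were still higher, with a median log2 fold change of 2.21. They had been chosen as higher with these same libraries, so their direction was nearly fixed and is no independent check.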

How the data were processed

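Bulk RNA-seq of 27 libraries (cortex and hippocampus) was analysed, and 9 cortex libraries form the comparison. Per the labels, libraries were made with a TruSeq Stranded mRNA kit, and per the study's methods they were sequenced paired-end on an Illumina NovaSeq and aligned to GRCm38 with STAR; the counting program, annotation and strand setting are not given in the sources used here, so overlapping genes are uncertain. The deposited values are raw counts per gene made by the authors, with no normalization. Columns were matched to samples by the library name in the labels, and IDs to symbols with GENCODE release M21 (55227 of 55487 matched).

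A gene was kept where 4 or more libraries had 10 or more counts. Treated libraries alone can meet this filter, so a gene near 0 in the controls was tested only where it was raised. Counts and medians of lists with such genes are partly fixed by the filter. All 27 libraries entered 1 fit with a mean per tissue and treatment, in edgeR 4.0.16 (R 4.3.3) with TMM scaling and the quasi-likelihood test. CPM are counts scaled to the TMM-adjusted library size. DEGs needed a Benjamini-Hochberg adjusted p below 0.05 and more than a 2-fold change. Pooled count ratios have exact 95% intervals that cover counting error only. Alternatives were DESeq2 1.42.0, other scaling and filters, other sets of libraries and leaving out each library. The pipeline was tested on simulated data. Libraries differ by more than sampling noise, so none was taken as a duplicate. Each mouse is a separate animal, and the same animals gave both tissues, which pairs the libraries of the tissue comparison only.

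The genes named were, by rule, the DEGs with the largest changes, up to 4 members of each gene list and the study's targets. The members and lists were chosen with earlier results of these data known, and the cerebellar list and further genes (among them Ccl2, Ccl3, Ccl5, Cxcl10, Fcgr4, Fcgr2b, Lcn2, Il1rn, Irf7, Isg15, C4b, P2ry12, Rorb and Cdk5r1) were chosen after their values were seen. Some results are not reported here.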

Additional observations from a re-analysis of the deposited data

Results flagged for a closer look

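In groups of 4 or 5 cortices, a library was marked where its gap to the nearest other value exceeded Dixon's 95% critical value. Of 252 groups examined, 28 were marked. A chance rate of about 1 in 20 holds for normally distributed values, which was not tested for these CPM. A library that alone has counts in its group is always marked, as for Marco, Acod1 and Clec4e in the controls. Some marked genes, among them Ccl3, Cxcl10 and Il1rn, were chosen after their values were seen. The number of marks therefore cannot be set against that rate. Mouse 8 of the α-IgLON5#1 group accounted for 13 of the 28 marks. It was highest in Acod1 (36.8 CPM), Clec4e (16.0), Ccr2 (14.1), F10 (6.44), Il1a (6.11), Nlrp3 (9.37), Il1b (42.0), Il6 (2.07), Il1rn (17.9), Ccl3 (68.1), Cxcl10 (88.1) and Gfap (1290 CPM), and lowest in Syndig1 (17.1 CPM).

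Mouse 17 was highest in Igkv6-23 (137 CPM against 0.325 to 1.17) and in Ighg2b (285 CPM against 13.8 to 52.6). Mouse 9 was highest in Opcml (245 CPM against 234 to 236), and mouse 16 lowest in Hc (0.786 CPM).

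Among the controls, mouse 37 was highest in Cnpy1 (5.16 CPM), Cbln3 (14.8 CPM) and the sum of the cerebellar genes (65.3 CPM), and lowest in Serpina3n (5.41 CPM). Mouse 15 was highest in C3 (1.06 CPM against 0.156 to 0.333), H2-Aa (9.96 CPM), Cd74 (18.7 CPM) and Acod1 (0.0942 CPM, the others at 0). Mouse 11 was highest in Marco (0.0532 CPM, the others at 0) and lowest in Mapt (572 CPM against 599 to 603), and mouse 10 was highest in Clec4e (0.0313 CPM, the others at 0).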

How the results depend on the processing

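The count of up-regulated DEGs, 433, was 198 when 10 counts were required in each of the 9 libraries, 257 when only those 9 were fitted, 9 among animals 8 to 17 and 219 to 550 when 1 library was left out, with 219 without mouse 8. Of these, 193, 251, 9 and, without mouse 8, 218 were among the 433, and DESeq2 called 421 of them. The count of down-regulated DEGs, 5, was 91 with no fold threshold, 8 with DESeq2, 2 under the stricter filter, 0 among animals 8 to 17, 3 with the 14 cortices, 2 with the 9 libraries and 2 to 9 when 1 library was left out. The tissue-by-treatment count, 0, was 36 with DESeq2, 1 with only the 4 groups compared, 2 with the replicate block (the animal) and 0 to 3 when 1 animal was left out. The cause of these shifts was not tested. Within the cortex comparison no paired analysis was possible because no mouse number is shared between the groups. Of 84 genes of the text at an adjusted p under 0.05, 62 kept it in every leave-one-out, 21 lost it without mouse 8, 3 kept it among animals 8 to 17 and 84 kept it with DESeq2. No direction reversed among these genes under the alternatives run. Low counts in the controls limit the fold changes of Ig variable genes and chemokines.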

Other observations

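Several gene families were counted after their values were seen, and some of their members, such as Ms4a1, Ms4a7, Oas1a and Oasl2, also belong to the lists above. All 10 tested of 11 genes of the Ifi200 family, interferon-induced sensors of DNA, were up-regulated, at a list median of 2.96 (log2 fold change). All 6 tested of 11 Clec4 genes, lectins of myeloid cells, were up-regulated (median 2.68, from 1.82 to 8.72). So were all 4 tested of 6 Lilr and Pir receptors (3.32), which restrain or activate leukocytes. Of 8 formyl peptide receptors 2 were tested and both were up-regulated, Fpr2 (3.46) and Fpr1 (3.12). Of the Ms4a family 7 of 9 tested genes were up-regulated (median 2.67), of the Schlafen family 5 of 7 (2.24), of the SLAM receptors 7 of 9 (2.19) and of the Oas family 6 of 8 (2.01). Of 7 tested Gimap genes, which lymphocytes express, 2 were up-regulated (median 0.64). Among 11 subunits and inhibitors of NF-kappaB 5 were up-regulated, Bcl3 (3.61), Nfkb2 (1.69), Nfkbie (1.36), Tnfaip3 (1.16) and Nfkbiz (1.09), with a median of 0.94.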
